A study of Homo sapiens with 23 samples.

Results

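In 4 human multiple myeloma lines, 36 genes gave almost no reads with the EV guide and were read with the guide against IRF4. They were taken by a rule on the deposited counts: a gene symbol, no place on the Y chromosome, at most 10 counts summed over the 11 EV guide libraries and at least 100 summed over the 12 IRF4 guide libraries. Of 27799 genes with a symbol off the Y chromosome, 10643 met the EV condition, and the 36 members are 0.338% of these. Because both sums chose the members, their difference between the guides is a description and was given no test.

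RNA was sequenced from cultures of H929, MM1S, OPM2 and RPMI-8226, lines of malignant plasma cells. In every group a guide RNA was expressed for 48 h under doxycycline, either a guide against IRF4 or one that the labels name EV, and the names of the deposited data show that all lines carried Cas9, the nuclease that a guide directs to its target. Each line had 3 libraries per guide, except MM1S with 2 EV libraries (replicates 2 and 3). A single IRF4 guide was used, and the sources used here give neither its sequence nor what EV stands for. Nothing says that replicates were separate cultures, so p-values measure only the spread among the sequenced libraries, which could be technical.

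IRF4 is a transcription factor that plasma cells need to form and that myeloma cells depend on. It binds DNA alone at interferon-type elements made of repeated GAAA letters, or beside partners of the ETS and AP-1 families at composite elements, and it can raise or lower the genes it binds. Its relatives IRF1 to IRF9 read similar letters, and the interferon-stimulated genes are their best known targets. A gene may be silent in a differentiated cell because its activators are missing or because its chromatin is closed, and genes of other lineages are the usual examples.

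Library totals ran from 6907390 to 28486960 counts, with 195790773 counts over the EV libraries and 238929793 over the IRF4 guide libraries, a ratio of 1.22. The EV total was smallest in MM1S, at 18028405 counts, so a gene with 0 counts there could still have stood at up to 0.166 CPM (counts scaled to a library total of 1000000), against at most 0.0510 CPM in the other lines. These limits cover counting error only. IRF4 itself fell in each line, with log2 fold changes of -1.58, -1.37, -0.66 and -1.10 in H929, MM1S, OPM2 and RPMI-8226 (edgeR quasi-likelihood test, adjusted p = 7.83e-07, 3.96e-05, 0.00675 and 0.000173), and the change differed between lines (adjusted p = 0.0317), as it did for 48.0% of 16468 genes tested. In OPM2 the guides overlapped for IRF4, with IRF4 guide replicate 2 at 1331 CPM and EV replicate 3 at 1319. These are levels of RNA, and the data hold no measure of IRF4 protein. All 12 plasma cell markers were read in every group, and on the average of the lines 3 rose and 9 fell (all genes 32.6% and 25.1%). TNFRSF17, the receptor BCMA (-1.61 ± 0.07, SE), and PRDM1, the regulator of plasma cell fate (-0.57 ± 0.04), were among those that fell. The 3 that rose were JCHAIN, the joining chain of antibodies (0.43 ± 0.05), FCRL5, an Fc receptor-like surface protein (2.18 ± 0.25), and DERL3, a protein of the endoplasmic reticulum (0.25 ± 0.06). The summed level of the 12 was 17251 to 17435 CPM with the IRF4 guide against 13469 to 14727 with EV in H929 and 4461 to 5703 against 3675 to 4013 in RPMI-8226. It was 7789 to 8080 against 7532 to 7790 in MM1S, and 9680 to 10483 against 10578 to 11437 in OPM2.

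The members held 178 counts in all EV libraries together and 14188 in the IRF4 guide libraries. Their EV sums had a median of 5.5 counts, and 3 genes (SP7, NEU4 and ADAMTS10) had none. Their IRF4 guide sums had a median of 168 counts. At the edge of the rule, APLNR with 109 and FAM110D with 112 IRF4 guide counts lay inside, and AMER3 with 99 and TREM1 with 98 lay outside. On the EV side CXCL6, FAM189A2, FUT7, TMEM176A and TNFSF14 were inside with 9 counts, and HPN and CSRP3 were outside with 11. With the guides exchanged, 0 genes met the rule, and at a lower bar of 50 counts 2 genes did, against 139 in the direction of the rule.

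**Figure D1:**
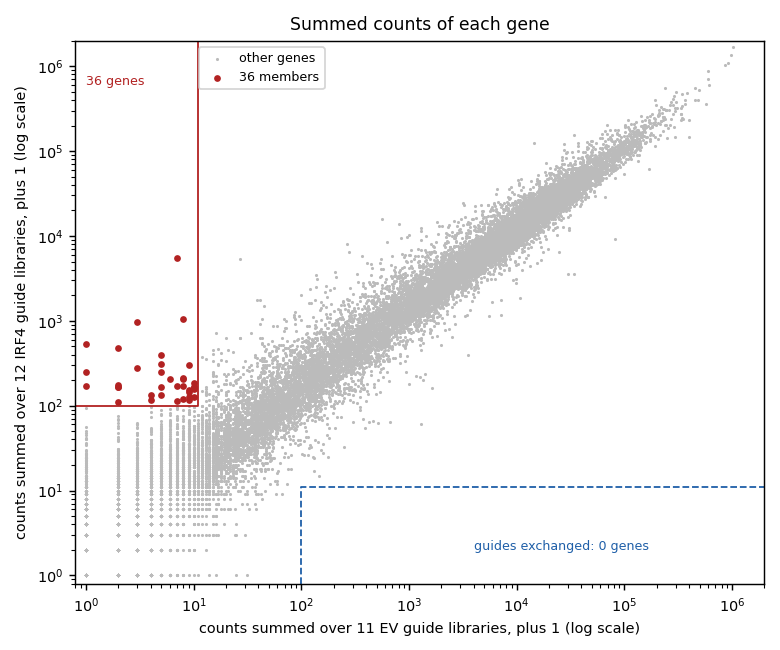
Counts of each gene summed over the 11 EV guide libraries (x axis) and the 12 IRF4 guide libraries (y axis), both plus 1 on log scales; red points are the 36 members. The solid corner encloses the genes of the rule and the dashed corner the same thresholds with the guides exchanged, which holds 0 genes.

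Most other genes that were silent with EV stayed so: 9302 of the 10643 had at most 10 IRF4 guide counts, 5433 of them none, and 1305 had 11 to 99. Of the members 33 are protein-coding (91.7%) and 3 are long non-coding RNAs (8.33%). Among all genes silent with EV the shares were 42.2% and 24.5%, and among those with 11 to 99 counts 63.8% and 23.9%. By symbol, 4 members are serine proteases or serpins (11.1%, against 0.667% of the genes silent with EV) and 2 are cytokines (5.56% against 0.921%). Among the silent genes with 11 to 99 counts these shares were 0.613% and 1.23%. No member has the symbol of an olfactory receptor, a keratin, an ion channel, a solute carrier, a homeobox gene or a ZNF gene. In that order, the classes holding these symbols made up 3.61%, 1.24%, 0.827%, 1.36%, 0.742% and 0.536% of the genes silent with EV. With so few members, the lack of any single class cannot be told from its rarity, and the classes were not tested together. Chromosome 19 holds 7 members (19.4%, against 5.23% of the genes silent with EV): HRC, KIR2DL4, GDF15, TNFSF14, ADAMTS10, PEAK3 and SMIM24. The members are scattered, with none next to another and the closest pair, PEAK3 and SMIM24, 1191811 bases apart.

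A member was counted as present in a line at 0.5 CPM or more over the pooled IRF4 guide libraries, with at least 1 count in each. By this measure 25 members were present in 1 line, 9 in 2 lines, 2 in 3 lines and 0 in all 4. OPM2 had 19 members and H929 had 16, of which 9 and 10 were present nowhere else. RPMI-8226 had 8, with 5 of its own, and MM1S had 6, with 1 of its own. H929 and OPM2 shared 5 members. In 19 members over 90% of the pooled CPM of the 4 lines came from a single line. Of the 36, 19 had no count at all in the 3 MM1S libraries with the IRF4 guide, against 6 in H929, 5 in OPM2 and 9 in RPMI-8226. A count of 0 in these groups still allows 0.0666 CPM in MM1S and at most 0.0529 in the other lines.

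**Figure D2:**
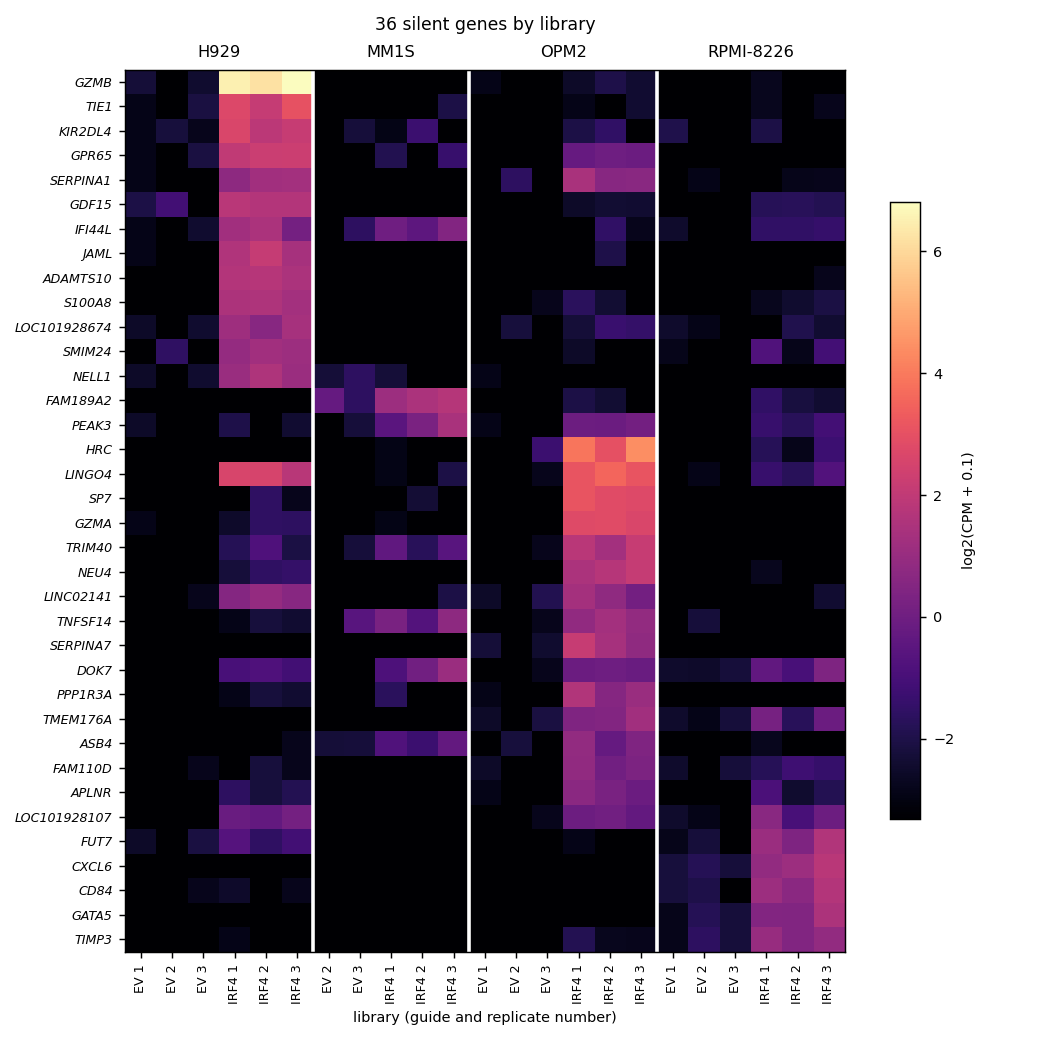
Each row is a member and each column a library, with the colour giving log2(CPM + 0.1); rows are grouped by the line with the highest pooled CPM (13 in H929, 2 in MM1S, 15 in OPM2, 6 in RPMI-8226). The bright blocks stand in the IRF4 guide libraries of mostly 1 line per gene, with all 3 replicates bright.

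The rule sums over lines, so it favours a gene that is silent in every line with EV. Applied within single lines with the same thresholds as CPM (EV at most 0.0511 CPM, IRF4 guide at least 0.419 CPM), it took 149 genes in H929, 126 in OPM2, 35 in RPMI-8226 and 21 in MM1S. With the guides exchanged the counts were 0, 0, 14 and 7. These within-line genes included 10 members in H929, 15 in OPM2, 1 in RPMI-8226 and 1 in MM1S. In MM1S the EV bar of 0.0511 CPM is under 1 count of its 18028405, so only genes at 0 could meet it.

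**Figure D3:**
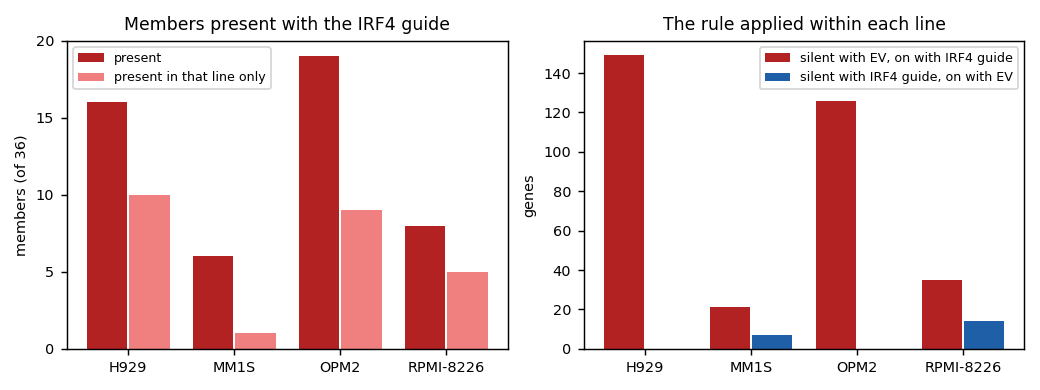
Left, members present with the IRF4 guide in each line and those present in that line only. Right, genes that met the rule's thresholds as CPM within a single line in both directions: 149, 21, 126 and 35 genes silent with EV and on with the IRF4 guide, against 0, 7, 0 and 14 the other way.

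The sum that admitted the members was taken over these same 12 IRF4 guide libraries, and many members reached it through a single line, so their division among lines is largely fixed by the rule and is a description. For the F test between lines (edgeR's quasi-likelihood fit, adjusted p under 0.05), 35 of 36 members were called, as were 96.6% of 14754 genes tested and 92.9% of the 3555 genes with 100 to 1000 counts. Nothing is read from this count. DOK7 was the member not called (edgeR, adjusted p = 0.271), although without MM1S IRF4 replicate 1 it was called (adjusted p = 0.0457).

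The members are described below by what their products are known for, a grouping made with their values known. A cytotoxic granule protease had the largest IRF4 guide sum of the members, 5509 counts. GZMB, granzyme B (chr14:24630954-24634190), the serine protease with which killer lymphocytes start apoptosis in their targets, was present in H929 alone. Its 3 IRF4 guide libraries there held 91.6, 74.0 and 112 CPM, and the EV libraries held 3, 0 and 2 counts. No library of another line exceeded 0.148 CPM. The pooled level in H929 was 1143-fold that with EV (95% counting interval 490 to 3522). Such intervals cover counting error only, not the spread among libraries, and the members were chosen by their sums. In the deposited values per gene length, GZMB reached a log2 RPKM of 6.68 there, higher than 96.3% of genes. No other member in any line where it was present passed 59.4%, the value of GZMA in OPM2, and the lowest was at 15.6%.

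GZMA, granzyme A, a serine protease of the same granules encoded on chromosome 5, was present in OPM2 and not in H929. Its OPM2 libraries held 6.89, 6.99 and 6.03 CPM with the IRF4 guide and 0 counts with EV, a pooled level at least 130-fold higher. H929 libraries held 0.0761, 0.238 and 0.227 CPM, under the bar for presence, and MM1S and RPMI-8226 held 1 count between them. By the bar for presence GZMB and GZMA thus stood in different lines.

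The promoters of both genes are shown because they share a lineage and parted by line. They are the RefSeq windows from 250 bases before to 50 bases after the start, on build GRCh38.p14, written 5′ to 3′ on the gene's strand. GZMB is at chr14:24634141-24634440, minus strand, and GZMA at chr5:55102396-55102695, plus strand. Capitals mark the AP-1 letters TGANTCA and the RUNX letters TGTGGT on either strand (ACCACA on the other).
GZMB: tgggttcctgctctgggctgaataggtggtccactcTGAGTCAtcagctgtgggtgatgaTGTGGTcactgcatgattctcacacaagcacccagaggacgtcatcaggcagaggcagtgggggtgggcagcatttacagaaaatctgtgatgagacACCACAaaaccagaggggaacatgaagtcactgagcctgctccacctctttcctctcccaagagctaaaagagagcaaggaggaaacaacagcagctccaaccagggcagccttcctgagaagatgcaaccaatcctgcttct
GZMA: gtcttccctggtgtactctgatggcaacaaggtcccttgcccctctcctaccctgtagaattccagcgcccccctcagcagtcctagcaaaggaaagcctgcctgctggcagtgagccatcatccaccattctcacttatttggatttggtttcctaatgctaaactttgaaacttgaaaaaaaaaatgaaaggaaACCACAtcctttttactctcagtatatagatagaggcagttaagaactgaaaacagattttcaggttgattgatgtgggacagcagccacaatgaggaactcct
The GZMB window has 1 AP-1 match at 214 bases before the start and RUNX matches at 190 and 93 bases before it, and the GZMA window has 1 RUNX match at 54 bases before the start. RUNX letters stand in 13.1% of the 35114 promoter windows of the table and AP-1 letters in 7.71%. A match describes these letters only.

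Other receptors of lymphocytes were among the members. KIR2DL4, a killer immunoglobulin-like receptor of natural killer cells, held 6.09, 3.57 and 4.40 CPM in H929, with 1 count in each EV library. Every H929 library with the IRF4 guide lay above every EV library, a separation that the rule largely fixed. In RPMI-8226, replicate 1 held 4 counts with EV (0.161 CPM) and 3 with the IRF4 guide (0.146 CPM), so the guides overlapped there. KIR genes are near-identical copies, so reads may have been split among them, which was not tested. KIR2DL1 and KIR3DL1, the neighbours of KIR2DL4, had at most 1 count in either set of libraries. JAML, an adhesion molecule of leukocytes, held 2.97, 4.28 and 2.50 CPM in H929 and at most 0.148 elsewhere. CD84, an adhesion receptor of the SLAM family, was present in RPMI-8226 alone, at 2.10, 1.54 and 3.11 CPM, with 3, 4 and 0 EV counts.

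Beside these genes stand other markers of T and NK cells. Of the list's 32 genes, 12 were silent with EV, and GZMB and GZMA are the members among them. Of 25 others tested, 12 rose and 0 fell in H929, where 32.9% of all genes rose and 26.1% fell. In OPM2 9 rose and 0 fell (all genes 23.3% and 20.2%), in RPMI-8226 8 and 0 (19.2% and 14.7%) and in MM1S 2 and 1 (19.4% and 15.2%). On the average 10 rose and 0 fell (all genes 32.6% and 25.1%), with a median log2 fold change of 1.11 against 0.11 for all genes. CD3E, a chain of the T cell receptor complex, rose by 2.85 ± 0.20 (SE) and PRF1, the pore former perforin, by 2.93 ± 0.32. CD7 rose by 3.93 ± 0.62 and CD2 by 2.42 ± 0.45, both surface proteins of T cells. Without the members, the list's summed level was 196 to 213 CPM in H929 with the IRF4 guide against at most 25.1 with EV, and 43.2 to 54.4 against 14.5 to 16.9 in OPM2. In RPMI-8226 it was already 254 to 292 CPM with EV, above H929 with the IRF4 guide, and 357 to 419 with the IRF4 guide, and in MM1S it was 31.5 to 35.0 with EV and 36.8 to 42.8 with the IRF4 guide. In OPM2 6 of the 32 genes were at 0 with the IRF4 guide and 12 with EV, and in H929 3 and 8 were. Those at 0 with the IRF4 guide included CD3D, CD8A, LCK and NKG7 in OPM2, and were KLRD1, NCR1 and GZMK in H929. In H929 LCK, CD3D and CD8A were at 0 with EV and read with the IRF4 guide. In bulk RNA, fewer cells of a type and less RNA per cell cannot be told apart, and the part of other cells in these levels was not tested.

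**Figure D4:**
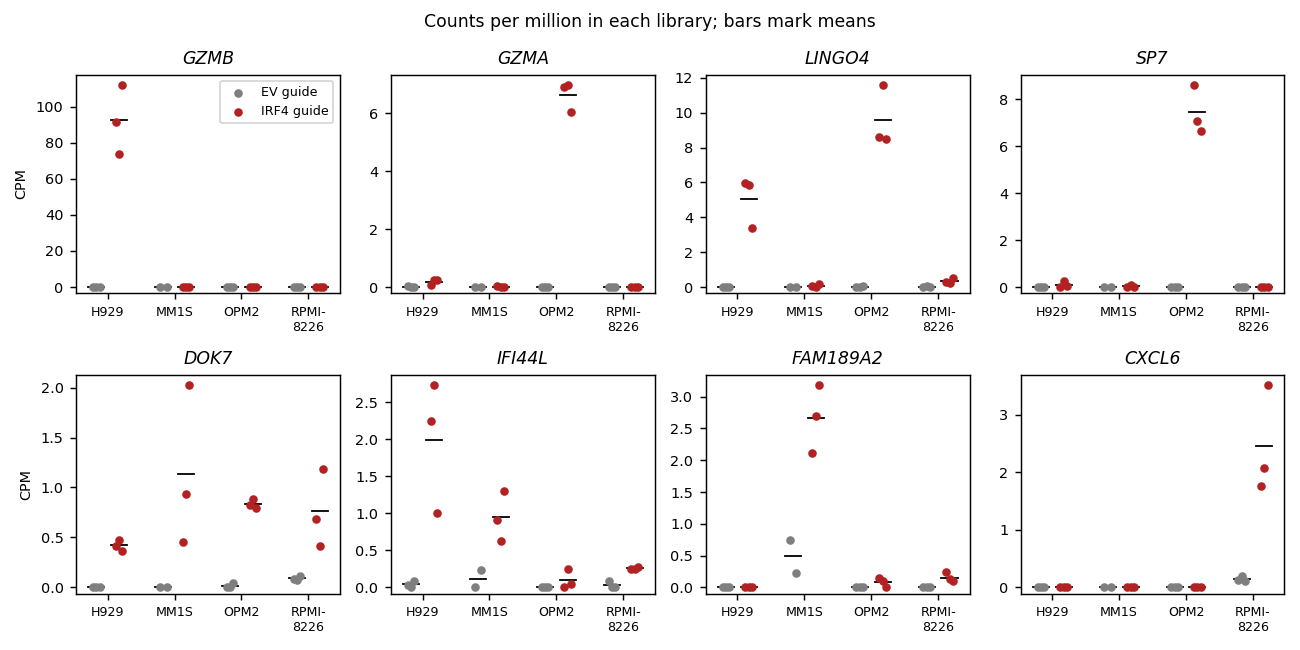
CPM in each library for 8 members, grey for the EV guide and red for the IRF4 guide, with a bar at each group's mean. GZMB stands at 74.0 to 112 CPM in H929 and GZMA at 6.03 to 6.99 CPM in OPM2, while DOK7 is spread over all 4 lines at up to 2.03 CPM.

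Secreted signals and alarm proteins were split over lines. TNFSF14, the TNF family ligand LIGHT, held 1.69, 2.36 and 1.77 CPM in OPM2 against a single EV count. In MM1S it held 1.09, 0.518 and 1.59 CPM, and its EV libraries held 0 and 5 counts, so the guides overlapped there. CXCL6, a chemokine for neutrophils, was read in RPMI-8226 only: 1.76, 2.08 and 3.52 CPM with the IRF4 guide, 3, 5 and 1 counts with EV, and 0 counts in the other 3 lines. Its pooled ratio was 16.4 (95% counting interval 8.41 to 36.4). GDF15, a stress cytokine of the TGF-beta family, held 3.46, 3.09 and 3.13 CPM in H929 and at most 0.208 elsewhere. S100A8, a calcium-binding alarm protein of myeloid cells, held 2.78, 2.85 and 2.36 CPM in H929 and 0 EV counts there, a level at least 51.6-fold higher. NELL1, a secreted protein tied to bone growth, held 1.98, 2.85 and 2.04 CPM in H929 and at most 0.105 with the IRF4 guide elsewhere, where MM1S EV held 1 and 2 counts.

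The lists of cytokines and myeloid markers were counted in the same way. Of 93 cytokine and chemokine genes 53 were silent with EV, and TNFSF14 and CXCL6 are the only members. Of 37 others tested 12 rose and 1 fell on average (all genes 32.6% and 25.1%), so that the share that rose is near that of all genes. By line, 17 rose and 1 fell in RPMI-8226 (all genes 19.2% and 14.7%) and 14 and 2 in H929 (32.9% and 26.1%). In OPM2 11 rose and 1 fell (23.3% and 20.2%), and in MM1S 8 and 1 (19.4% and 15.2%). Of 40 myeloid markers 23 were silent and S100A8 is the member, and of 19 others tested 8 rose and 0 fell on average. S100A9, the partner with which S100A8 forms calprotectin, rose by 4.45 ± 0.38 and CLEC7A, a receptor for fungal glucans, by 0.79 ± 0.07 on average. Without S100A8, the summed myeloid markers reached 95.6 to 103 CPM in H929 against 60.3 to 79.0 with EV. They stood higher in RPMI-8226, where S100A8 was not present (851 to 1200 against 677 to 720). In H929 11 of the 40 were at 0 with the IRF4 guide, CD14, MPO, ELANE and TYROBP among them, against 16 with EV. What part other cells had in S100A8 was not tested.

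Receptors of lymphoid cells and of other tissues followed. GPR65, a proton-sensing G protein-coupled receptor of lymphoid cells, held 3.88, 4.64 and 4.77 CPM in H929 and 0.754, 0.886 and 0.842 in OPM2. APLNR, the receptor for apelin, held 1.51, 1.08 and 0.842 CPM in OPM2. TIE1, a receptor tyrosine kinase of blood vessel endothelium, held 6.43, 4.28 and 8.12 CPM in H929, against 1, 0 and 3 EV counts, and at most 0.145 CPM in any other library. All H929 libraries with the IRF4 guide were above all EV libraries for GPR65 and TIE1, which the rule likewise largely fixed. Of 6 other endothelial markers tested in H929, 0 rose and 1 fell (all genes 32.9% and 26.1%), with a median log2 fold change of 0.11. The 1 that fell was PECAM1, an adhesion molecule of endothelium and of leukocytes, from 120 ± 24 to 24.7 ± 8.8 CPM (SD, n = 3; -2.27 ± 0.18, SE). It made up most of the summed list without TIE1, which was 106 to 150 CPM with EV and 33.6 to 47.7 with the IRF4 guide. CDH5, ERG and TEK were at 0 in H929 with both guides and KDR with the IRF4 guide, while SELE and PLVAP were at 0 with EV and read with the IRF4 guide.

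A protease outside the granules, serpins and an inhibitor of metalloproteinases formed another group. SERPINA1, the liver-derived inhibitor alpha-1 antitrypsin, held 1.60, 2.26 and 2.31 CPM in H929 and 2.62, 1.43 and 1.46 in OPM2, with 1 and 2 EV counts. Its near copy SERPINA2 had 0 counts in all libraries. SERPINA7, the carrier of thyroxine in blood, was read in OPM2 only, at 4.31, 2.51 and 1.64 CPM, with 3, 0 and 2 EV counts. ADAMTS10, a metalloprotease of the extracellular matrix, held 3.08, 3.33 and 2.68 CPM in H929, 0 in every EV library and 1 count in the other IRF4 guide libraries, a level at least 58.2-fold higher. TIMP3, an inhibitor of metalloproteinases, held 1.90, 1.29 and 1.74 CPM in RPMI-8226, where EV replicate 2 held 6 counts and the others 1 each. Of 24 liver genes 22 were silent with EV, and SERPINA1 is the only member.

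A pair of transcription factors of other tissues stood in a single line each. SP7, osterix, which directs the making of bone-forming cells, held 8.62, 7.09 and 6.65 CPM in OPM2 and 0 counts in all 11 EV libraries, a level at least 148-fold higher in that line. H929 held 0, 0.238 and 0.0454 CPM. GATA5, a zinc-binding factor of heart and gut, held 1.32, 1.29 and 2.74 CPM in RPMI-8226 and 0 counts in the other lines with either guide, but 1, 5 and 1 EV counts in RPMI-8226 itself.

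A further 3 members, HRC, PPP1R3A and DOK7, are known from muscle, a grouping made with their values known, since none is in the muscle list. HRC, a calcium-binding protein of the sarcoplasmic reticulum, held 14.9, 7.87 and 21.1 CPM in OPM2, the line that was highest for 15 of the 36 members. Its 7 EV counts all came from OPM2 EV replicate 3, and the pooled ratio was 125 (95% counting interval 60.4 to 311). That interval leaves out this spread among the EV libraries. PPP1R3A, which brings a phosphatase to muscle glycogen, held 3.02, 1.38 and 1.99 CPM in OPM2. DOK7, the adaptor that activates the receptor kinase of the neuromuscular junction, was the most even of the members. It held 0.456, 0.932 and 2.03 CPM in MM1S, 0.826, 0.886 and 0.798 in OPM2, 0.683, 0.416 and 1.19 in RPMI-8226 and 0.419, 0.476 and 0.363 in H929.

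Its top line, OPM2, held 29.9% of its pooled CPM. At a bar of 0.2 CPM DOK7 was the 1 member present in all 4 lines. The muscle list held 20 genes silent with EV and no member. Of its 19 genes tested 7 rose and 0 fell on average (all genes 32.6% and 25.1%), so that the share that rose is near that of all genes. TTN, the giant sarcomere protein titin, was at 1.91 ± 0.21 and MB, myoglobin, at 2.49 ± 0.30. In OPM2 10 rose and 0 fell (all genes 23.3% and 20.2%), and the summed level was 265 to 345 CPM against 48.1 to 69.2 with EV. It was 76.3 to 118 against 18.9 to 25.5 in H929, 89.3 to 140 against 49.6 to 56.6 in MM1S and 75.3 to 108 against 54.5 to 78.1 in RPMI-8226. By calls, 8 of the 19 rose and 0 fell in H929 (all genes 32.9% and 26.1%). In MM1S 1 rose and 0 fell (19.4% and 15.2%), and in RPMI-8226 2 rose and 2 fell (19.2% and 14.7%). In OPM2 14 of the 42 genes of the list were at 0 with the IRF4 guide, MYOD1, MYOG, MYF5 and MYH7 among them, against 23 with EV.

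Among enzymes that build or trim sugars, NEU4, a sialidase, held 2.69, 3.30 and 4.21 CPM in OPM2 and 0 counts in all EV libraries. FUT7, the fucosyltransferase that completes the sugar bound by selectins on homing leukocytes, held 2.05, 1.21 and 3.06 CPM in RPMI-8226 and 0.533, 0.238 and 0.363 in H929, where EV held 2, 0 and 3 counts. Among ubiquitin ligases and their partners, TRIM40, of the TRIM family, held 3.48, 2.31 and 4.34 CPM in OPM2 and 0.667, 0.207 and 0.579 in MM1S. ASB4, an adaptor of ubiquitin ligases, held 1.76, 0.738 and 1.24 CPM in OPM2 and 0.491, 0.311 and 0.724 in MM1S, just under the bar when pooled.

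IFI44L, an interferon-stimulated gene, was the member of that list, in which 5 of 42 genes were silent with EV. It held 2.25, 2.73 and 0.998 CPM in H929 and 0.913, 0.622 and 1.30 in MM1S, against 1, 0 and 2 EV counts in H929 and 0 and 2 in MM1S. In OPM2 it held 0, 0.246 and 0.0443 CPM. Of 38 other interferon-stimulated genes tested, 31 rose in H929, 20 in MM1S and 23 each in OPM2 and RPMI-8226, where 32.9, 19.4, 23.3 and 19.2% of all genes rose. In the same order 0, 3, 1 and 3 fell, where 26.1, 15.2, 20.2 and 14.7% of all genes fell. DDX60L, an antiviral helicase relative, rose by 2.97 ± 0.13 on average. IFI44, the related gene 3644 bases downstream of IFI44L, went from 0.219 ± 0.16 to 2.99 ± 1.6 CPM in H929 (SD, n = 3; edgeR log2 fold change 3.73, adjusted p = 2.47e-06). In MM1S IFI44 was at 4.09 CPM with EV and 5.20 with the IRF4 guide (0.35, edgeR adjusted p = 0.583), and without MM1S EV replicate 3 at -0.069, while IFI44L was present there. In OPM2 the reverse held, with IFI44 at 2.32 ± 0.72 CPM against 0.0394 ± 0.037 (edgeR adjusted p = 1.31e-06) and IFI44L not present.

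The windows of IFI44L, JAML and DOK7 are shown because they hold the letters that IRF factors read. IFI44L is at chr1:78620198-78620497, plus strand, JAML at chr11:118212897-118213196, minus strand, and DOK7 at chr4:3484294-3484593, plus strand, the second of its starts. Capitals mark the repeated half-site of interferon elements, GAAA followed after any 2 letters by GAAA, and a composite of an ETS and an IRF half-site, GGAA followed after any 2 letters by GAAA. Both were searched on either strand, where they read as TTTC and TTTC or TTTC and TTCC, and RUNX letters are marked in JAML.
IFI44L: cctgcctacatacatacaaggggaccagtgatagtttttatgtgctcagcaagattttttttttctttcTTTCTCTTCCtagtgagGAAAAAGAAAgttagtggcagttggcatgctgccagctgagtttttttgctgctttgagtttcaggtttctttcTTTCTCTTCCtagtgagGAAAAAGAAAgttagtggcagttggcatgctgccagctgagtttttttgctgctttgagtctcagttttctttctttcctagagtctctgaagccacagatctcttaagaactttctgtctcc
JAML: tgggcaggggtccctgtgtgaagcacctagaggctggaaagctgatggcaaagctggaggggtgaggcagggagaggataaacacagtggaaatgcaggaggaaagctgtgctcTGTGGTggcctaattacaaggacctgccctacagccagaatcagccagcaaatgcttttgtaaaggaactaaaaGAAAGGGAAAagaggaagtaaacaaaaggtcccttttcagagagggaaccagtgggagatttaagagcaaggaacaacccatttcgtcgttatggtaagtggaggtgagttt
DOK7: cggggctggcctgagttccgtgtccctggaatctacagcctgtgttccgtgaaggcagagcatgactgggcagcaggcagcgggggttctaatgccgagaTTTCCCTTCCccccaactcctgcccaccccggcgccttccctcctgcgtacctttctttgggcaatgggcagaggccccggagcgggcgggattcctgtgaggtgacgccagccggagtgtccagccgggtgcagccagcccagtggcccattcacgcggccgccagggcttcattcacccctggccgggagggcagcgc
In IFI44L each motif stands as a repeat, the first at 164 and 73 bases and the composite at 181 and 90 bases before the start. JAML has the interferon-type letters at 62 bases and DOK7 the composite at 150 bases before the start. The start used for JAML lies inside the gene, whose outer end is at 118225011. Of the 31 members with a window, 3 have the repeated GAAA half-site (IFI44L, JAML and TNFSF14) and 2 the composite, letters that stand in 3.57% and 2.82% of all windows. AP-1 letters are in 5 members, TATAAA in 8 (11.5% of all windows) and the MYC letters CACGTG in 0 (7.26%). Genes often have several windows, 43 for these 31, and the shares of all windows are per window. The windows of members held a median of 8 CG dinucleotides, against 14 over all windows.

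The remaining members were not grouped by lineage. LINGO4, a neuronal-type membrane protein with leucine-rich repeats, had the third largest IRF4 guide sum. It held 5.98, 5.83 and 3.40 CPM in H929 and 8.58, 11.6 and 8.51 in OPM2, with 2 EV counts in all libraries. RPMI-8226 held 0.293, 0.208 and 0.503 CPM and MM1S 0.0351, 0 and 0.145. By mean level the lines fall in the order OPM2, H929, RPMI-8226 and MM1S, and no library of a line overlaps those of the next. TMEM176A, a membrane protein of myeloid cells, held 1.22, 1.33 and 2.26 CPM in OPM2 and 1.02, 0.208 and 0.823 in RPMI-8226. PEAK3, a pseudokinase, held 0.597, 1.14 and 2.61 CPM in MM1S and 0.862, 0.837 and 0.975 in OPM2.

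FAM189A2 was the only member present in MM1S alone, at 2.11, 2.69 and 3.18 CPM, and its EV libraries there held 7 and 2 counts. Those counts came from the smallest EV total, 18028405, so FAM189A2 was read in MM1S with EV and was not silent there. Its pooled ratio, 4.80 (95% counting interval 2.44 to 10.8), was the smallest of any member in the line where that member was highest. SMIM24, which encodes a small membrane protein, held 1.79, 2.26 and 2.09 CPM in H929, and FAM110D held 1.69, 0.935 and 1.15 in OPM2. The 3 long non-coding RNAs were LINC02141 (1.33, 1.78 and 1.45 CPM in H929; 2.44, 1.67 and 0.975 in OPM2), LOC101928674 (2.13, 1.43 and 2.45 in H929) and LOC101928107. The last held 0.799, 0.713 and 0.998 CPM in H929, 0.862, 0.935 and 0.709 in OPM2 and 1.46, 0.416 and 0.869 in RPMI-8226, and 0 counts in MM1S. With DOK7 it was the member present in the most lines.

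The genes beside the members on the chromosome were not chosen by their reads. Of 76 nearest or overlapping neighbours of 35 members, 46 could be tested in the line where the member was highest: 21 rose, 6 fell and 19 were not called. In these lines 19.2 to 32.9% of all genes rose and 14.7 to 26.1% fell. A neighbour that rose was found for 17 members, within 20 kb for 11 of them, and for 4 it lay upstream on the same strand within that distance (JAML, PEAK3, NELL1 and GDF15). The sources used here do not say whether strand was used in counting, so reads of overlapping genes cannot be told apart, and reads running past the end of an upstream gene would be counted in the next.

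ADAMTS10 lies between MYO1F, a myosin of white blood cells 2798 bases downstream on the same strand, and LINC01862, upstream on the other strand. Both rose in H929 (5.22 ± 0.24 and 6.20 ± 0.28). MYO1F also rose in the other lines, to 122 ± 16 CPM in MM1S (1.42 ± 0.15) and to 60.4 ± 9.9 in RPMI-8226 (1.83 ± 0.14), both above its 17.9 ± 2.9 CPM in H929. ADAMTS10 was at 0 counts in MM1S and at 1 in RPMI-8226, and any link between these genes was not tested. LOC101928674 overlaps SOCS3, an inhibitor of cytokine signalling, which rose in H929 from 2.27 ± 0.58 to 53.3 ± 4.2 CPM (4.47 ± 0.19), in OPM2 by 2.95 ± 0.24 and in RPMI-8226 by 0.78 ± 0.20. TMEM176A overlaps TMEM176B, which rose in OPM2 (3.64 ± 0.45) and RPMI-8226 (1.57 ± 0.26), the lines in which TMEM176A was present.

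**Figure D5:**
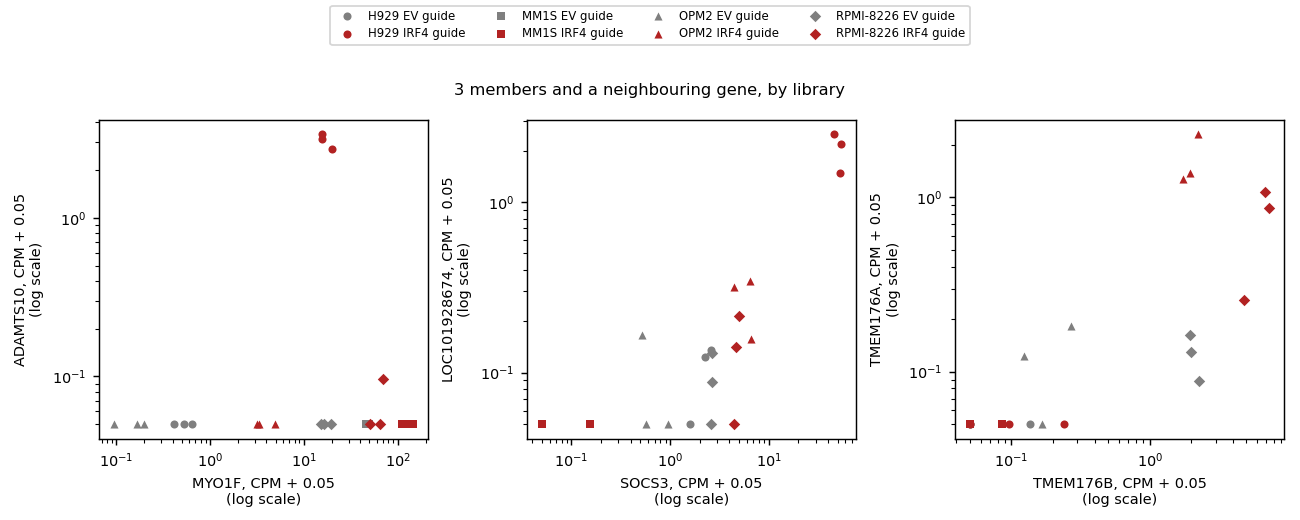
CPM + 0.05 in each library on log scales for ADAMTS10, LOC101928674 and TMEM176A (y axes) against a neighbouring gene (x axes), with marker shapes for lines and red for the IRF4 guide. ADAMTS10 stands at 2.68 to 3.33 CPM in H929 with the IRF4 guide and at 0 or 1 count in other libraries. With the IRF4 guide MYO1F is higher in MM1S and RPMI-8226 than in H929.

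The neighbours that fell were AAAS beside SP7, LRPAP1 beside DOK7, NFIC and DOHH beside SMIM24, ZNF593 beside FAM110D and TNKS1BP1 beside APLNR, with log2 fold changes from -0.25 to -0.79. Those that rose did so by 0.20 to 6.20, and the ones described here were chosen after their values were seen. MPZL3, a membrane protein 1679 bases upstream of the outer end of JAML, went from 16.8 ± 2.4 to 59.3 ± 2.8 CPM in H929 (1.80 ± 0.11). LINGO3, 4989 bases upstream of PEAK3, rose in MM1S (2.71 ± 0.27) and also in H929 (3.84 ± 0.40), where PEAK3 was not present. PGPEP1, a peptidase 16208 bases upstream of GDF15, rose by 1.32 ± 0.10 in H929. OLIG1, a factor of oligodendrocytes 39291 bases from LOC101928107, rose in H929, OPM2 and RPMI-8226, the lines in which that RNA was present (4.82 ± 0.16, 2.25 ± 0.12 and 0.44 ± 0.13). CXCL8, interleukin-8, lies 92962 bases upstream of CXCL6 and rose in RPMI-8226 (2.60 ± 0.31). GZMH, the granzyme gene beside GZMB at 21269 bases, reached 0.458 ± 0.19 CPM in H929 against 2 EV counts, and as a near relative of GZMB it may share reads with it.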

How the data were processed

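For the 23 libraries the authors deposited a table of unnormalised counts of 28395 Entrez genes and log2 RPKM values, of which those of the members were used to compare genes per length. Per the submitters' processing notes, Subread, featureCounts and limma were used with GRCh38 (hg38), with no versions. Genes without a symbol, 490 in number, stayed in the fits and in no list.

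Members and gene lists were chosen with earlier results of these data known. CPM used library totals. Ratios of pooled counts have exact conditional 95% intervals, which cover counting error and not the spread among libraries. A group at 0 was set to 3 counts over the group, so such ratios are lower bounds. In R 4.3.3, edgeR 4.0.16 with TMM scaling and a robust quasi-likelihood fit gave the contrast of guides in each line and on average (filterByExpr by group, 16468 genes) and the F test between lines among IRF4 guide libraries (14754 genes with at least 100 counts), with Benjamini-Hochberg adjustment over all genes and calls under 0.05. Both fits were tested on simulated data. Levels of other genes are TMM-scaled CPM. Alternatives used DESeq2 1.42.0, other filters and thresholds, replicate blocks and single libraries left out. The rule within lines was added after the data had been seen. Deviations from group means correlated between same-numbered libraries at 0.144 to 0.183 in OPM2, all over 0.1, so the numbers are taken to pair the libraries there, as a reading of the data since no label says so. In each of the other lines (0.0256 to 0.161) at least 1 pair was under 0.1.

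All 36 members are named, more than the naming rule asks (the 15 of highest mean CPM, the 5 highest of each line, list members and those nearest a threshold). Of genes outside the rule, IRF4, neighbours chosen after their values were seen, the plasma cell markers that rose (likewise) and the first 1 to 4 genes per list by adjusted p on the average are named. RefSeq supplied coordinates and promoter windows (GRCh38.p14); 31 members matched a window. The neighbours of 1 member are not reported here.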

Additional observations from a re-analysis of the deposited data

Results flagged for a closer look

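These genes, none of them members, were singled out because their change with the IRF4 guide differed between the lines, by the F test of edgeR's quasi-likelihood fit (adjusted p), as for 48.0% of all genes tested. Among genes beside members the values were 8.59e-11 for MYO1F, 1.56e-09 for LINC01862, 1.73e-10 for SOCS3, 0.0214 for TMEM176B and 0.000150 for IFI44. They were 8.75e-09 for MPZL3, 3.37e-15 for OLIG1, 1.37e-06 for LINGO3 and 0.00108 for PGPEP1.

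Among list genes of T and NK cells they were 3.96e-05 for CD3E, 1.35e-07 for PRF1 and 2.05e-10 for CD7. Perforin rose in H929 and OPM2 (4.49 ± 0.23 and 6.14 ± 0.38, SE), the lines with GZMB and GZMA, and was at 1.23 ± 1.11 in MM1S and -0.13 ± 0.47 in RPMI-8226, where neither was present. The myeloid genes S100A9 and CLEC7A had 1.26e-06 and 3.62e-07, the muscle genes TTN and MB 0.000866 and 0.00435, PECAM1 had 1.02e-05 and DDX60L 3.35e-08. Of the plasma cell markers TNFRSF17 had 2.57e-06, PRDM1 0.000319, JCHAIN 4.35e-05 and DERL3 1.08e-08. IRF4 itself had 0.0317.

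A gene without a symbol, Entrez 105369205, met both count thresholds. It held 129 IRF4 guide counts and 9 EV counts, all in RPMI-8226. The RefSeq table used here did not match it.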

How the results depend on the processing

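The number of members follows the thresholds: members by the rule were 18 at an EV sum of at most 5 counts, 100 at 20, 139 at an IRF4 guide sum of at least 50 and 14 at 200. Leaving out single libraries gave 30 to 53, the extremes without H929 IRF4 replicate 1 and H929 EV replicate 3. At 0.2 CPM members present in all 4 lines were 1, against 0, and leave-one-out kept 0; those present in 1 line only were 24 to 26. Members called in the F test between lines, a description, were 35 to 36 without single libraries. Calls without single libraries ranged over 8662 to 9810 genes in H929, 3810 to 5861 in MM1S, 6015 to 7319 in OPM2, 4042 to 5737 in RPMI-8226 and 9074 to 9464 on average.

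Of 216 values for counts 211 stayed within 1.5 times, the others being those above. Of 540 for the members' difference between lines 538 kept their call, the exceptions being DOK7 (named beside its result) and SERPINA7, not called by DESeq2 (adjusted p = 0.0966). As the rule largely fixed the members' division among lines, nothing is read from these calls. IFI44 IRF4 guide against EV, MM1S was 0.35, not called, and ran from -0.069 to 0.97 without single libraries, reversed without MM1S EV replicate 3; the cause was not tested.

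With the replicate block 35 members and 14366 genes differed between lines; within each line it called 10339, 6060, 8092, 6837 and, on average, 9681 genes. It moved none of these counts by over 1.5 times and changed no call of a named gene, in OPM2 as in the other lines. Every member rests on few reads with EV, and MM1S, at 2 EV libraries, is least able to show a gene as silent.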

Other observations

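Other lists hold no member. Of 34 B cell genes 6 were silent with EV and none became a member, while of the 26 tested 15 rose and 3 fell on the average of the lines (all genes 32.6% and 25.1%), with a median log2 fold change of 1.24 (all genes 0.11). Of 46 neuronal and synaptic genes 19 were silent, and of 25 tested 8 rose and 0 fell on average, a share that rose near that of all genes. In H929 14 rose and 1 fell (all genes 32.9% and 26.1%). Of 33 germ line and cancer-testis genes 15 were silent, and of 17 tested 0 rose and 3 fell on average, both under the shares of all genes. None of these lists was tested as a whole.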
